A study of Mus musculus with 36 samples.

Results

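RNA from sorted microglia of control mice was set against RNA from whole control cortex, to find which genes were enriched in microglia relative to the tissue and which were absent from them. The libraries were chosen by label: the 3 microglia libraries of the group Control and the 3 cortex libraries titled CTRL_CX_NoTx, 6 of the 36 libraries of a poly(A) RNA-seq series on male mice with MBP29-hα-syn, a transgene driven by the Mbp promoter to mimic multiple system atrophy (MSA). Control microglia were sorted from the forebrains of 16-week-old, perfused, untreated animals after a Percoll gradient, as single CD11b+CD45low events, a gate that took in over 95% of the CD11b+ events. The same libraries carry the tag MBP29_het, so they may hold 1 copy of the transgene locus, although the protocol speaks of wild-type controls. Control cortex was archived frozen bulk tissue from mice tagged CTRL that ate the standard AIN-76A chow for 12 weeks from 4 weeks of age. Sorted cells and frozen tissue thus differed also in region, handling and perhaps genotype, and these cannot be told apart from cell type. The labels do not say whether libraries came from separate animals, so a p-value here rests on the spread between libraries, which may be technical. Set beside them were 16-week-old MSA microglia, tagged MBP29_homo and sorted the same way, and MSA cortex on the standard chow. PLX5622 (1200 mg/kg), an inhibitor of the kinase CSF1R, was fed for 12 weeks from 4 weeks of age. Its libraries were control and MSA cortex, control corpus callosum and control striatum. Libraries of the same regions and genotypes on the standard chow, called placebo below, were set against them.

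Microglia are the resident macrophages of the brain parenchyma. They arise from yolk-sac progenitors, depend on signals through the receptor CSF1R, and keep an identity set by the transcription factor PU.1 and by TGF-β in the tissue. They make the complement subunits C1q, sense nucleotides and danger signals, and degrade what they engulf in lysosomes, while making up a small share of cortical cells.

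The microglia libraries held 7465554, 8177309 and 12110865 counts assigned to genes, and the cortex libraries held 7162375, 7722296 and 6490635. Microglia replicates were closer to each other than cortex replicates, with a median coefficient of variation of 7.49% in microglia and 28.1% in cortex over 9336 genes with a mean log2 CPM (assigned counts, scaled to a common library total) of at least 4. Cortex library 3 stood apart: 60.1% of its reads were assigned to genes, against 82.6% and 77.7% in the other cortex libraries, and the genes of 38 cytosolic ribosomal proteins summed to 19228 CPM there, against 2146 and 2931 CPM. The level of 20 genes of glutamatergic neurons was 4238 CPM in all in that library and 10973 and 11382 CPM in the others. Without that library 5523 genes were called higher and 6186 lower in microglia, against 4603 and 5538 with it.

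Microglia and cortex differed at most genes. Of 14318 genes tested, 4603 (32.1%) were higher in microglia and 5538 (38.7%) lower at an adjusted p under 0.05 (edgeR quasi-likelihood test, Benjamini-Hochberg). Changes of at least 8-fold were found for 1248 genes higher in microglia and for 3230 genes lower in microglia, and the median log2 change of all genes tested was -0.15. The groups did not overlap for 11119 of the 14318 genes tested, so a lack of overlap, where given below, sets no gene apart. Genes called higher, by at least 3 on the log2 scale, with a mean of at least 10 CPM in microglia are called microglia-enriched below, and there were 1024 of them. At the edge of that set, Aldh16a1 changed by 3.001 and Hsp90b1, just outside it, by 2.999. The enriched genes took 39.4, 39.6 and 39.7% of the assigned counts in the microglia libraries, against 1.65, 1.59 and 1.66% in the cortex libraries. Genes with 0 counts in all 3 microglia libraries and a mean of at least 1 CPM in cortex numbered 536, and they took 0.747, 0.673 and 0.580% of the cortex counts. As 3 counts of the 27753728 in microglia are 0.108 CPM, a gene listed at 0 may still have been present below that level.

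**Figure D1:**
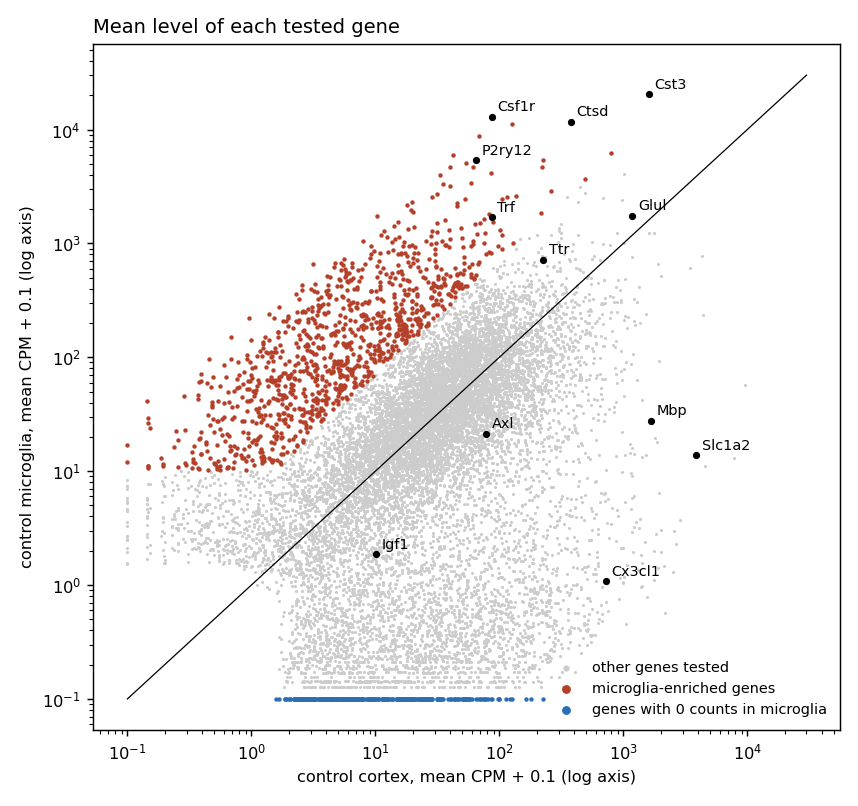
Mean level of every tested gene in control microglia (vertical) and control cortex (horizontal), in CPM plus 0.1 on log axes, with the line of equal levels; points are genes. The 1024 microglia-enriched genes lie above the line and the genes with 0 counts in microglia lie along the bottom edge, with Trf and Glul above the line and Igf1 and Axl below it.

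The genes of the sort antigens were high in microglia. Itgam, which encodes CD11b, had 2241, 2271 and 2354 CPM in microglia, against 23.04, 19.6 and 16.3 CPM in cortex (log2 change 6.99 ± 0.33 SE, adjusted p = 6.26e-06). Ptprc, which encodes CD45, had 446, 429 and 414 CPM in microglia, against 2.23, 1.29 and 3.85 CPM in cortex (log2 change 7.62 ± 0.40 SE, adjusted p = 9.40e-06). The groups did not overlap for either gene. Both genes encode antigens of the gate, so their high level follows from the selection and does not measure the purity of the sort. All 30 genes of a list of homeostatic microglial markers were higher in microglia, with a median log2 change of 6.44, and the list summed to 114462, 109685 and 112381 CPM in microglia, against 2291, 2591 and 4276 CPM in cortex. Csf1r, the receptor for CSF1 and IL-34, had 13024, 13366 and 12553 CPM in microglia, against 107, 104 and 51.3 CPM in cortex (log2 change 7.32 ± 0.48 SE, adjusted p = 1.83e-05). Cx3cr1, the fractalkine receptor, had 8460.3, 8656 and 8990.3 CPM in microglia, against 70.8, 57.4 and 77.2 CPM in cortex (log2 change 7.14 ± 0.29 SE, adjusted p = 5.53e-06). Every microglia library lay over 100-fold above every cortex library for both receptors. Tmem119, a membrane protein used to tell microglia from other macrophages, had 3768, 4066 and 4169 CPM in microglia, against 32.5, 31.6 and 34.8 CPM in cortex (log2 change 7.06 ± 0.27 SE, adjusted p = 5.53e-06). P2ry12, an ADP receptor that steers microglial processes, changed by 6.55 ± 0.33 (SE), and P2ry13, a related nucleotide receptor, by 7.55 ± 0.28. Both lie on the opposite strand within Med12l, and since strand use in counting is not given, their reads cannot be told apart from those of Med12l. Aif1, which encodes IBA1, the antigen most used to stain microglia, was less abundant, with 161, 177 and 174 CPM in microglia, against 2.09, 2.98 and 9.55 CPM in cortex (log2 change 5.33 ± 0.52 SE, adjusted p = 0.000101), and changed by 6.13 without cortex library 3.

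Promoters of 3 abundant enriched genes are shown because each holds a match to GAGGAAGT, the core letters bound by PU.1. They are RefSeq sequences of build GRCm38.p6, from 250 bases before to 50 after the annotated start, written 5′ to 3′ on the gene's strand, with the match in capitals (ACTTCCTC is the same motif read on the other strand). Ctss encodes the lysosomal protease cathepsin S, and its promoter is at chr3:95526536-95526835, plus strand. C1qc encodes a chain of the complement starter C1q, and its promoter is at chr4:136892865-136893164, minus strand. Pld4 encodes a lysosomal nuclease, and its promoter is at chr12:112760405-112760704, plus strand.
Ctss: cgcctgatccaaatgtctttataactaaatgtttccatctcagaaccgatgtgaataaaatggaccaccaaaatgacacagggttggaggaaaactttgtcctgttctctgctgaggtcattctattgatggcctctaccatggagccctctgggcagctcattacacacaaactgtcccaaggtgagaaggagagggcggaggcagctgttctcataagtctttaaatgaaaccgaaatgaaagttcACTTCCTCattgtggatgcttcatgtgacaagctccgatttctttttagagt
C1qc: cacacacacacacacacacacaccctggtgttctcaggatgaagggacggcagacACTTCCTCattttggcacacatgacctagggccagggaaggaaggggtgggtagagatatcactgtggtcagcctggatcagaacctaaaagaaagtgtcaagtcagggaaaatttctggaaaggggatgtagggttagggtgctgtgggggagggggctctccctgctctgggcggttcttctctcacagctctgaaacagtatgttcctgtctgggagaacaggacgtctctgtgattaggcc
Pld4: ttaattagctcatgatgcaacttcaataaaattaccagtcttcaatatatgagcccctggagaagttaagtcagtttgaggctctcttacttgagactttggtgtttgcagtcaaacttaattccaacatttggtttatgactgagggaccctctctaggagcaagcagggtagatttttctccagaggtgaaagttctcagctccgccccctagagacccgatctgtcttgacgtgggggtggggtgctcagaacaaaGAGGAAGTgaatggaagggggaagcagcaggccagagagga
The match lay across the annotated start of Ctss, upstream of that of C1qc and downstream of that of Pld4.

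Ctss had 5033, 5297 and 4773 CPM in microglia, against 38.4, 53.4 and 69.8 CPM in cortex (log2 change 6.71 ± 0.31 SE, adjusted p = 6.06e-06), and C1qc had 3216, 2943 and 3467 CPM in microglia, against 37.3, 46.1 and 36.1 CPM in cortex (log2 change 6.47 ± 0.30 SE, adjusted p = 6.06e-06). Neither gene's groups overlapped. Pld4 changed by 6.93 ± 0.34 (SE). GAGGAAGT, searched on both strands, was found in 82 of the 802 enriched genes that had a promoter sequence (10.2%), in 12 of 372 genes absent from microglia (3.23%) and in 384 of all 11097 tested genes with a promoter (3.46%). A second motif, GGAANNGAA, which joins the letters of PU.1 and IRF, was found in 10.3% of enriched promoters, 7.26% of those of absent genes and 8.71% of all. TGACGTCA, the cyclic AMP response element, was found in 1.12% of enriched promoters, 1.88% of those of absent genes and 3.51% of all. A match is a description of these letters in this window and not a site or a cause.

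Receptors and signalling genes of the haematopoietic lineage moved together. All 27 genes of a list of microglial receptors and adaptors were higher in microglia, with a median log2 change of 6.46. Csf3r, the receptor for granulocyte colony-stimulating factor, had 1102, 982 and 1069 CPM in microglia, against 7.96, 6.99 and 8.78 CPM in cortex (log2 change 7.20 ± 0.27 SE, adjusted p = 5.53e-06). Il10ra, a chain of the IL-10 receptor, had 852, 874 and 850.4 CPM in microglia, against 7.400, 9.32 and 12.3 CPM in cortex (log2 change 6.63 ± 0.27 SE, adjusted p = 5.53e-06). Both genes were near 1% of their microglial level in cortex. The 26 genes of haematopoietic signalling, such as Syk and Lyn, tyrosine kinases below immune receptors, and Cd37, a leukocyte tetraspanin, were all higher, with a median of 6.72. Itgb2, which encodes the β chain that pairs with CD11b, had 642, 654 and 676 CPM in microglia, against 2.79, 4.403 and 2.003 CPM in cortex and was among the genes of largest change at a mean log2 CPM of at least 4 (log2 change 7.85 ± 0.41 SE, adjusted p = 9.40e-06).

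Of 21 myeloid transcription factors, 20 were higher in microglia, with a median of 4.90. Spi1, which encodes PU.1, had 448, 408 and 424 CPM in microglia, against 4.33, 6.73 and 4.62 CPM in cortex (log2 change 6.48 ± 0.31 SE, adjusted p = 6.33e-06). Irf8, a partner of PU.1, had 729, 678 and 629 CPM in microglia, against 5.72, 6.47 and 6.93 CPM in cortex (log2 change 6.88 ± 0.25 SE, adjusted p = 5.53e-06). Runx1 and Ikzf1, regulators of blood cell development, changed by 6.21 and 6.47. The exception was Mef2c, which microglia and neurons both use, at 493 ± 23.4 CPM in microglia and 508 ± 89.9 CPM in cortex (SD, n = 3 each; log2 change 0.08, adjusted p = 0.7799).

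Innate sensing genes had the same direction. All 23 tested genes of 24 on a list of toll-like receptors and innate sensors were higher, and the list summed to 6509, 6687 and 6613 CPM in microglia, against 96.2, 107 and 135 CPM in cortex. Unc93b1, the chaperone of nucleic-acid-sensing toll-like receptors, changed by 6.78 ± 0.29 (SE), Tlr7, a sensor of single-stranded RNA, by 6.70, and Tmem173, which encodes the adaptor STING, by 7.21. Among 18 cytokine and chemokine genes tested, from 22 listed, 15 were higher, 1 was lower and 2 were not called. Genes near 0 in cortex pass the low-count filter only through their microglia values. The shares higher in these lists, and in lists below that were not tested in full, are thus partly set by the filter. Tgfb1, the ligand on which microglial identity depends, had 845, 802 and 797 CPM in microglia, against 13.1, 10.2 and 4.01 CPM in cortex (log2 change 6.58 ± 0.55 SE, adjusted p = 5.06e-05). Ccl3 and Ccl4 attract leukocytes and were close to 0 in cortex, where Ccl4 had a single count over 3 libraries, so that its level in microglia was 596 times higher with a 95% counting interval of 107 to 23575. Counting intervals and limits cover counting error only. Tnf, a proinflammatory cytokine, had 42.7, 19.3 and 17.5 CPM in microglia, against 0.1396, 0 and 0 CPM in cortex (log2 change 8.85 ± 0.80 SE, adjusted p = 6.91e-05), and its highest microglia library lay well above the other two. The only cortex count of Tnf was 1 in library 1, as for Ccl4, so the size of its fitted change is less certain than the SE shows.

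Antigen presentation and lysosomal genes were higher at smaller ratios. Of 14 MHC class I genes tested, from 16 listed, 13 were higher with a median of 3.94, a share partly set by the low-count filter. Of 10 MHC class II genes, 9 were higher with a median of 5.40. B2m, the light chain of class I molecules, had 1539.6, 1405 and 1113 CPM in microglia, against 34.8, 56.3 and 55.9 CPM in cortex (log2 change 4.94 ± 0.30 SE, adjusted p = 1.34e-05). Cd74, the invariant chain of class II, had 119, 135 and 121 CPM in microglia, against 4.47, 1.68 and 1.69 CPM in cortex (log2 change 5.69 ± 0.46 SE, adjusted p = 4.26e-05), and changed by 6.39 without cortex library 1. All 3 microglia libraries lay above all cortex libraries for both genes. Of 28 lysosomal genes, 27 were higher with a median of 3.52. Cd68, a lysosomal membrane protein of macrophages, changed by 6.46 ± 0.26 (SE) and Lgmn, a lysosomal protease, by 5.72 ± 0.29, whereas Gaa, which breaks down lysosomal glycogen in every cell type, was at 249 ± 3.27 CPM in microglia and 267 ± 187 CPM in cortex (SD, n = 3 each; log2 change -0.02, adjusted p = 0.977). Ctsb, which encodes cathepsin B, overlaps Fdft1 on the opposite strand, and their reads cannot be told apart here.

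**Figure D2:**
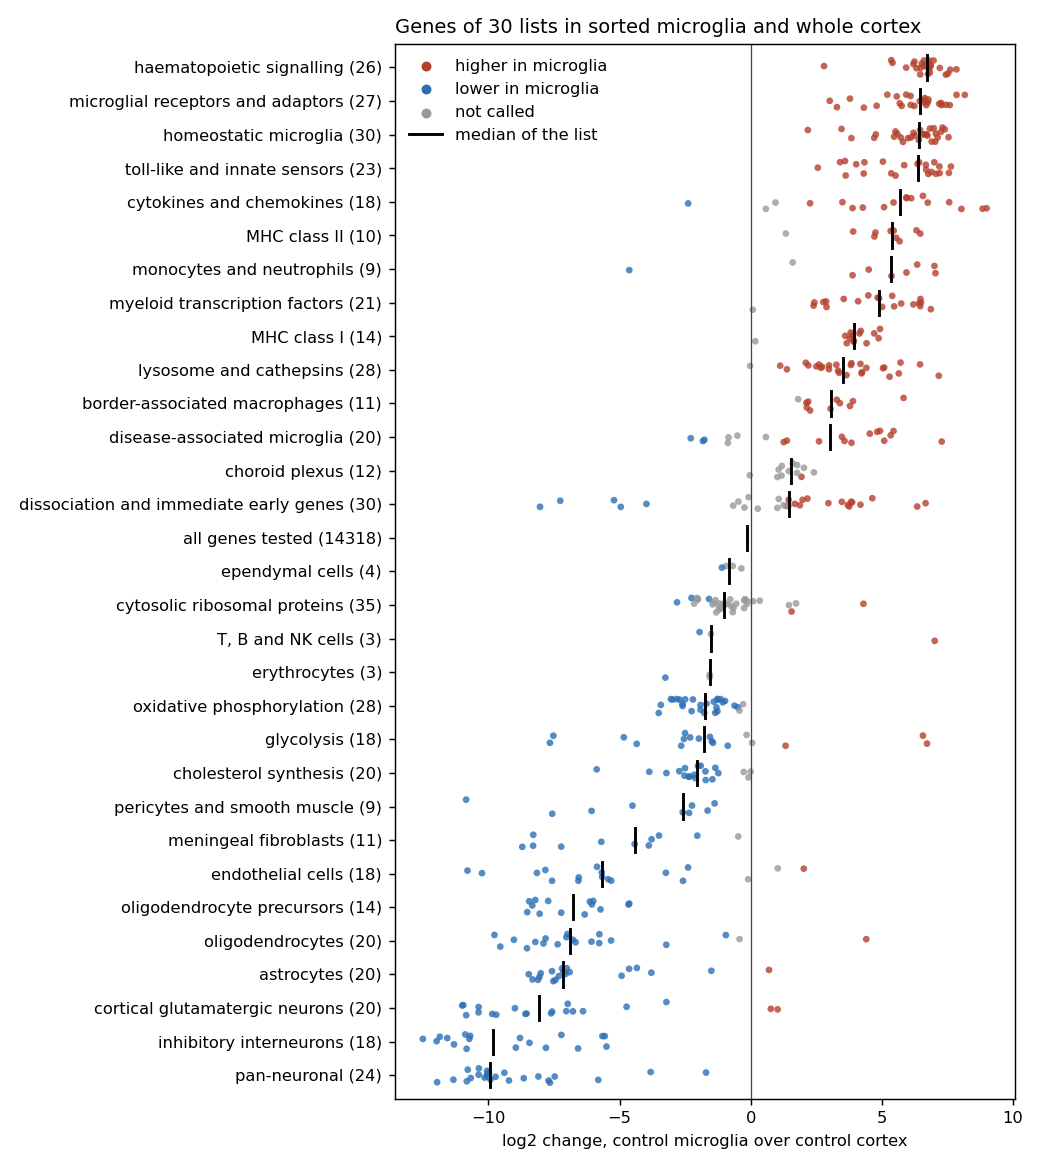
Log2 change of each tested gene in control microglia over control cortex (horizontal), for 30 gene lists with the number tested in brackets (vertical); points are genes, coloured by call, and black bars are list medians. Homeostatic, receptor, signalling and sensing genes have medians from 6.37 to 6.72, and pan-neuronal and interneuron genes have medians of -9.95 and -9.83. With the 5 interneuron genes of 0 counts in microglia held at the limit of 3 counts over the group, the interneuron median is -8.67.

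Of 20 genes tested of a list of disease-associated microglia, 13 were higher in control microglia, 3 lower and 4 not called. Over all genes tested 32.1% were higher and 38.7% lower. Clec7a, which encodes the receptor dectin-1, had 24.1, 24.9 and 17.9 CPM in microglia, against 0.279, 0 and 0.154 CPM in cortex, with 3 counts in cortex over all libraries and a ratio of 154 (95% counting interval 52.5 to 750.3). Cd9, a tetraspanin, had 314, 432 and 391 CPM in microglia, against 18.8, 28.1 and 41.9 CPM in cortex (log2 change 3.85 ± 0.31 SE, adjusted p = 4.48e-05). Axl, a receptor that binds GAS6 on dying cells, was lower, with 22.9, 20.2 and 20.6 CPM in microglia, against 81.3, 96.99 and 56.5 CPM in cortex (log2 change -1.76 ± 0.28 SE, adjusted p = 0.00104). Ank, a pyrophosphate exporter, and Fth1, the ferritin heavy chain, were also lower at -1.82 and -2.28. Cortex library 3 was highest for Fth1, whose change was -1.22 (adjusted p = 0.00034) without that library, and its call was lost without microglia library 2 or 3 (adjusted p = 0.0615 and 0.065). Apoe, a lipid carrier that astrocytes make in quantity, was at 763 ± 215 CPM in microglia and 1171 ± 419 CPM in cortex (SD, n = 3 each; log2 change -0.51, adjusted p = 0.2695). Without cortex library 3 Apoe was called lower at -0.77 (adjusted p = 0.0233), and the list had 13 genes higher and 5 lower. Igf1, a growth factor, was the cytokine-list gene that was lower, with 2.68, 1.22 and 1.404 CPM in microglia, against 9.91, 12.3 and 7.703 CPM in cortex (log2 change -2.38 ± 0.42 SE, adjusted p = 0.001797).

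Per unit of length, the 10 most abundant genes of microglia included Cst3, Ctsd, C1qa, Ctss, Tmsb4x, Csf1r, Actb, C1qb and C1qc, and the 10 took 16.0% of the TPM, a level scaled by gene length and library, of all listed genes. Cst3, which encodes the protease inhibitor cystatin C, was at 36887 ± 6393 TPM in microglia and 2572 ± 1048 TPM in cortex (SD, n = 3 each). C1qa, a chain of C1q, was at 6233 ± 387 TPM in microglia and 73.6 ± 16.1 TPM in cortex (SD, n = 3 each). Cst3 was also abundant in cortex, where C1qa was not. Of the 10, 9 were called higher, and Tmsb4x, which encodes an actin-binding peptide, was not (log2 change 1.55 ± 0.66 SE, adjusted p = 0.0704): it had 2379, 2464 and 2363 CPM in microglia, against 295, 463 and 2142 CPM in cortex. Cortex library 3 reached the microglia range for it, and without that library its change was 2.74 with an adjusted p of 4.55e-06. The smallest changes at 50 CPM or more in both groups were those of 6 genes, among them Cand1, an exchange factor of ubiquitin ligases, at 98.5 ± 8.72 CPM in microglia and 107 ± 29.5 CPM in cortex (SD, n = 3 each; log2 change -0.00, adjusted p = 0.999), and Cope, a coatomer subunit, at 80.6 ± 4.74 CPM in microglia and 90.2 ± 26.98 CPM in cortex (SD, n = 3 each; log2 change 0.00, adjusted p = 0.9904).

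Immediate early and stress genes, which can respond to dissociation of tissue, were divided. Of 30 genes, 16 were higher in microglia, 5 lower and 9 not called, with a median of 1.45, beside 32.1% higher and 38.7% lower over all genes tested. Fos, an AP-1 subunit, had 458, 436 and 367 CPM in microglia, against 61.2, 13.5 and 17.3 CPM in cortex (log2 change 3.87 ± 0.66 SE, adjusted p = 0.00153), and changed by 4.98 without cortex library 1. Jun, its partner, had 1666, 1398 and 1344 CPM in microglia, against 97.6, 49.99 and 42.2 CPM in cortex (log2 change 4.64 ± 0.45 SE, adjusted p = 9.88e-05), and Zfp36, which speeds decay of cytokine mRNA, had 1127, 976 and 991 CPM in microglia, against 19.8, 11.01 and 10.01 CPM in cortex (log2 change 6.36 ± 0.43 SE, adjusted p = 2.00e-05). Cortex library 1 was the highest cortex library for all 3 genes and still lay below every microglia library. Npas4 and Nr4a2, activity genes of neurons, ran the other way: Npas4 had 0, 0.367 and 0 CPM in microglia, against 18.99, 19.4 and 25.4 CPM in cortex, a ratio of 195 (95% counting interval 66.4 to 950.1) in favour of cortex, and Nr4a2 changed by -5.21 ± 0.45 (SE). The part of sorting in the levels of these genes was not tested.

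Neuronal genes were far lower in the sorted cells. All 24 pan-neuronal genes were lower in microglia with a median log2 change of -9.95, and they summed to 257, 251 and 248 CPM in microglia, against 19481, 19959 and 18551 CPM in cortex. Most of the sum in microglia was Rtn1, a reticulon of the endoplasmic reticulum, which had 224, 222 and 218 CPM in microglia, against 952, 819 and 571 CPM in cortex. Slc17a7, the vesicular glutamate transporter of cortical excitatory neurons, had 0.536, 0.611 and 0.908 CPM in microglia, against 2042, 1744 and 847 CPM in cortex (log2 change -10.96 ± 0.64 SE, adjusted p = 1.25e-05). Gad1, which makes GABA in interneurons, had 0.268, 0.734 and 0.3303 CPM in microglia, against 305, 259 and 164 CPM in cortex (log2 change -8.96 ± 0.54 SE, adjusted p = 1.34e-05). No microglia library reached 1 CPM for either gene. Of 20 genes of glutamatergic neurons, 18 were lower and 2 higher. All 18 interneuron genes were lower, and Sst, a neuropeptide of one interneuron class, had 2 counts in microglia and was 2523 times lower there (95% counting interval 698 to 20839).

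Markers of other glia were lower too. Of 20 astrocyte genes, 19 were lower and 1 higher with a median of -7.17, and of 14 genes of oligodendrocyte precursors all were lower with a median of -6.78. Gfap, the astrocyte intermediate filament, had 1.07, 0.489 and 0.661 CPM in microglia, against 140.2, 120.2 and 93.8 CPM in cortex (log2 change -7.19 ± 0.39 SE, adjusted p = 1.05e-05). Slc1a2, the main glutamate transporter of astrocytes, had 22.2, 4.402 and 14.4 CPM in microglia, against 4852, 5101 and 1705 CPM in cortex (log2 change -8.05 ± 0.89 SE, adjusted p = 0.000174), and changed by -7.42 without microglia library 2. Of 20 oligodendrocyte genes, 18 were lower, 1 higher and 1 not called. Mbp, which encodes myelin basic protein and whose promoter drives the transgene of the model, had 46.3, 10.8 and 25.8 CPM in microglia, against 1287, 1999 and 1712 CPM in cortex (log2 change -5.77 ± 0.60 SE, adjusted p = 0.000137). Every microglia library lay far below every cortex library.

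**Figure D3:**
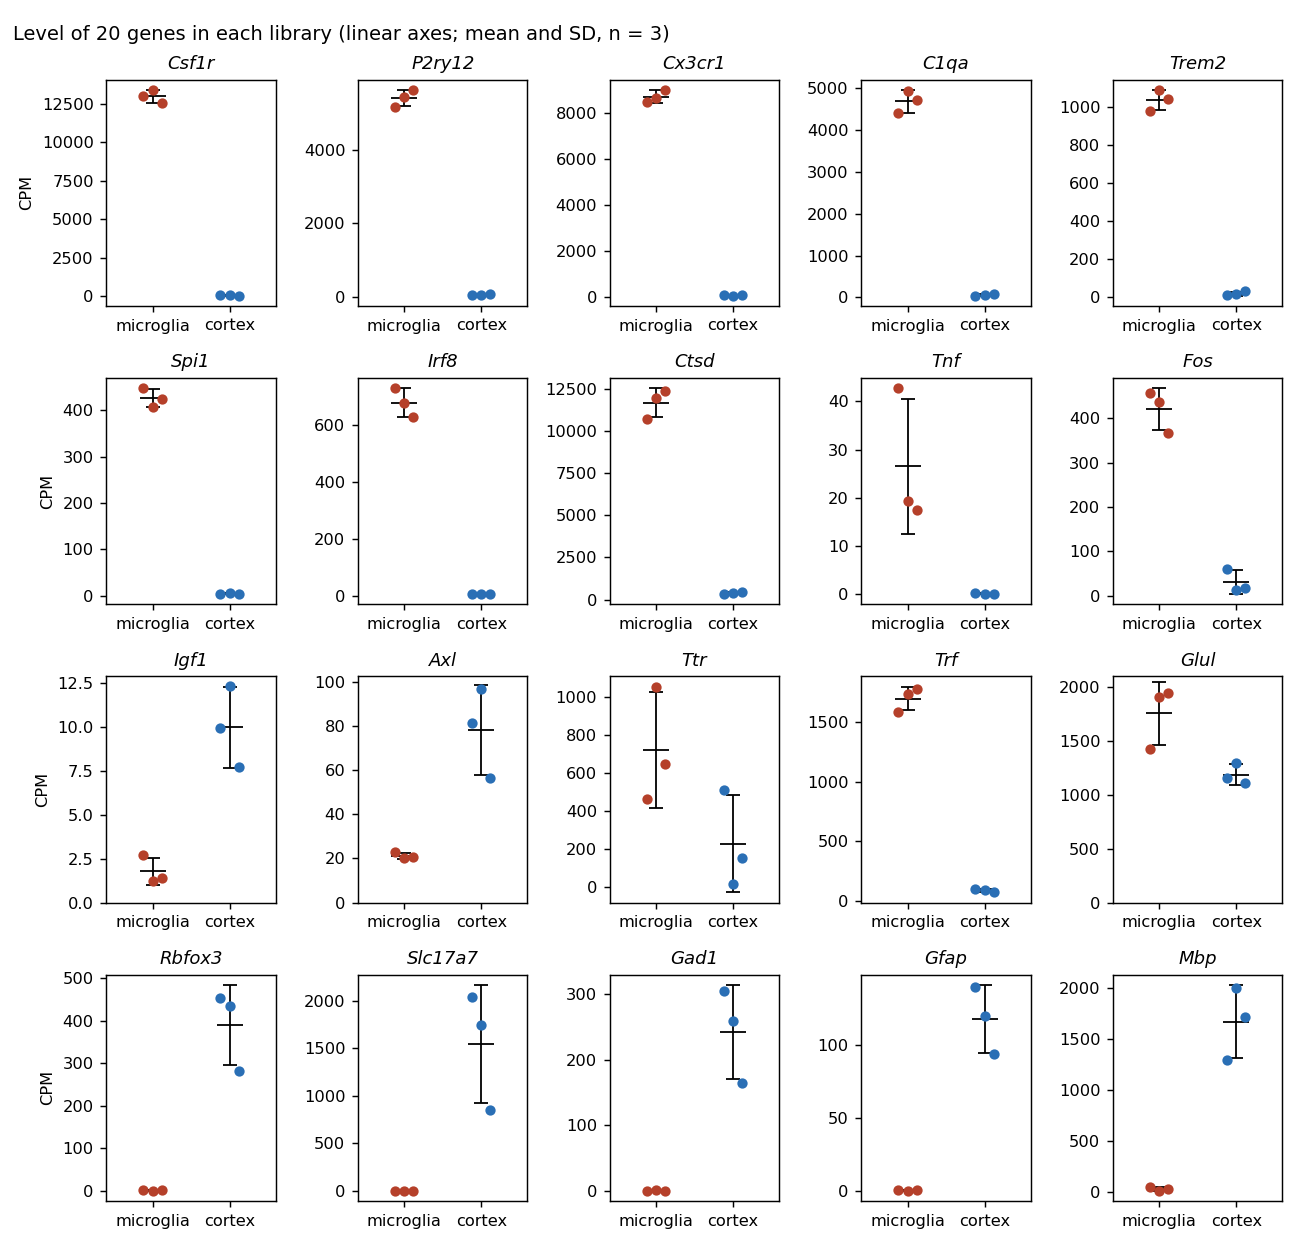
CPM of 20 genes in each control microglia library (left, red) and each control cortex library (right, blue) on linear axes; points are libraries, bars the mean and SD (n = 3 each). Microglial genes are near 0 in cortex on these axes, Rbfox3 to Mbp are near 0 in microglia, and the groups overlap for Ttr.

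Vascular and fibroblast lists were mostly lower in microglia. Of 18 endothelial genes tested, 15 were lower and 1 higher. Cldn5, the tight junction protein of brain endothelium, had 0 counts in microglia, against 47.9, 14.6 and 22.03 CPM in cortex, which is at least 261-fold lower (limit of 3 counts over the group). All 9 tested pericyte and smooth muscle genes, from 13 listed, and 10 of 11 tested fibroblast genes, from 12 listed, were lower. Genes near 0 in microglia can pass the filter on low counts only through their cortex values, so these shares are partly set by the filter. Rgs5, a pericyte regulator of G-protein signalling, had 1 count in microglia and a ratio of 2855 (95% counting interval 512 to 112824) in favour of cortex. Of 4 ependymal genes tested 1 was lower, and of 3 erythrocyte genes 1 was lower and 2 were not called, beside 38.7% lower over all genes tested.

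Genes listed for cell types other than microglia were also counted in the sorted libraries, which were gated on CD11b and low CD45. Of 11 genes tested on a list of border-associated macrophages, 10 were higher in microglia, and the list summed to 885, 898 and 934 CPM in microglia, against 23.04, 27.8 and 33.9 CPM in cortex, most of it from Stab1, a scavenger receptor, at 823 ± 17.3 CPM in microglia and 15.95 ± 2.57 CPM in cortex (SD, n = 3 each). Mrc1, the mannose receptor, had 30.7, 32.5 and 34.8 CPM in microglia, against 3.77, 2.33 and 4.16 CPM in cortex (log2 change 3.41 ± 0.26 SE, adjusted p = 3.12e-05). Of 9 monocyte and neutrophil genes tested, from 18 listed, 7 were higher. A gene near 0 in cortex can pass the filter on low counts only through its microglia values, so the shares of both lists are partly set by the filter. The list summed to 55.2, 93.8 and 123 CPM in microglia, against 17.9, 25.8 and 23.3 CPM in cortex. Ngp, a neutrophil granule protein, had 12.7, 18.1 and 25.4 CPM in microglia, against 0, 0 and 0.462 CPM in cortex, a ratio of 141 (95% counting interval 48.2 to 688), while the granule genes Elane and Mpo had 0 counts in microglia. Of 3 tested genes of T, B and NK cells, from 18 listed, 1 was higher and 1 lower, near the 32.1% higher and 38.7% lower over all genes tested. Cd3g, Cd8a, Gzma and Nkg7 had 0 counts in microglia. Of 12 choroid plexus genes, 1 was higher and 11 were not called, with a median of 1.54, beside 32.1% higher over all genes tested. The list had 0 genes called higher with RLE size factors, 2 with DESeq2 and 6 in a fit of all 18 cortex and microglia libraries, and the gene called, Clic6, an intracellular channel protein, lost its call under 6 of the alternatives. Ttr, the thyroxine carrier that choroid plexus secretes, had 461, 1056 and 646 CPM in microglia, against 509.7, 13.6 and 153 CPM in cortex (log2 change 1.77 ± 1.07 SE, adjusted p = 0.176). Its groups overlapped, since cortex library 1 lay above microglia library 1, and without that cortex library its change was 3.40 with an adjusted p of 0.0240. The part of these cell types in the levels of shared genes was not tested.

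Several genes went against the list they stood on. Trf, the iron carrier transferrin, listed with oligodendrocytes, had 1588, 1733 and 1777 CPM in microglia, against 96.3, 93.5 and 71.2 CPM in cortex (log2 change 4.41 ± 0.29 SE, adjusted p = 1.67e-05). Glul, glutamine synthetase, listed with astrocytes, had 1419.6, 1907 and 1942 CPM in microglia, against 1155, 1295 and 1104 CPM in cortex (log2 change 0.70 ± 0.25 SE, adjusted p = 0.0354). Groups did not overlap for either gene, but the call of Glul was lost under 6 of the alternative settings, with adjusted p-values up to 0.845 when a change of more than 2-fold was tested. Mir8114 overlaps Glul on the same strand but had a log2 change of 7.96 (adjusted p = 7.89e-06). It had 34.4, 49.6 and 53.2 CPM in microglia, against 0.279, 0.129 and 0.154 CPM in cortex, where Glul was abundant. Which transcript the reads listed for Mir8114 came from was not tested. Tle4 and Cux1, transcription factors listed with deep and upper cortical layers, changed by 1.03 and 0.77 and were not called when a change of more than 2-fold was tested. Pecam1, an adhesion molecule of endothelium and leukocytes, had 56.5, 32.9 and 33.3 CPM in microglia, against 16.6, 9.06 and 6.62 CPM in cortex (log2 change 2.03 ± 0.44 SE, adjusted p = 0.00482).

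Among genes with a mean log2 CPM of at least 4, those of largest change included receptors without a count or nearly so in cortex. Ly9, an immune cell adhesion receptor, had 60.3, 37.4 and 24.8 CPM in microglia, against 0, 0.129 and 0 CPM in cortex, a ratio of 813 (95% counting interval 146 to 32154) on 1 count in cortex. Adora3, the adenosine A3 receptor, had 233, 226 and 211 CPM in microglia, against 0.279, 0.777 and 1.54 CPM in cortex (log2 change 8.17 ± 0.45 SE, adjusted p = 1.05e-05), and its locus overlaps Tmigd3 on the same strand, with which reads are shared. Clec4a3, a lectin receptor, had 61.6, 60.9 and 64.5 CPM in microglia, against 0.1396, 0.129 and 0.616 CPM in cortex (log2 change 7.86 ± 0.40 SE, adjusted p = 8.80e-06), and changed by 8.77 without cortex library 3. Genes higher in microglia and detected in no cortex library numbered 25.

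Among the 536 genes with 0 counts in microglia, 521 stood on none of the lists, and 342 passed the filter on low counts, a filter that such genes pass only through their cortex values. The limit of 3 counts over the group made them at least 9.28-fold to at least 2083-fold lower, with a median limit of 35.7-fold. Rnf112, a RING finger GTPase of neurons, was highest in cortex at 218, 241 and 216 CPM, at least 2083-fold above microglia. Cnksr2, a scaffold of the synapse, had 209.6, 235 and 89.8 CPM in cortex (at least 1649-fold lower in microglia) and Gsg1l, an auxiliary subunit of AMPA glutamate receptors, had 138, 136 and 65.9 CPM (at least 1050.1-fold lower in microglia). Pvalb, the calcium buffer of fast-spiking interneurons, had 33.4, 64.2 and 199 CPM, with cortex library 3 highest (at least 913-fold lower in microglia). Mgat5b, a glycosyltransferase of the brain, Tmem179, a transmembrane protein, Ephb6, an ephrin receptor without kinase activity, Bok, of the BCL2 family, Dact2, a regulator of Wnt and TGF-β signalling, and B4galnt4, a second glycosyltransferase, completed the highest 10, with limits from 808-fold to 1514-fold. In MSA microglia, which played no part in choosing them, 343 of the 536 genes again had 0 counts, 175 had 1 to 3 counts and 18 had more, the highest being 23 counts. The MSA microglia libraries held 7224254, 8833876 and 5951129 assigned counts, fewer in all than the control microglia libraries, so 0 counts come more easily there. The share of other genes of like cortex level with 0 counts in MSA microglia was not computed, so these numbers have no background to be set against.

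Ligands of microglial receptors were looked up after other values had been seen, as a check of which partner lay in which compartment. Il34, a ligand of CSF1R made by neurons, had 0 counts in microglia, against 59.3, 71.9 and 61.9 CPM in cortex, at least 596-fold lower. Cx3cl1, the fractalkine of neurons, had 0.536, 1.59 and 0.826 CPM in microglia, against 1047, 858 and 253 CPM in cortex (log2 change -9.41 ± 0.86 SE, adjusted p = 7.26e-05), the opposite of its receptor. Cd200, a neuronal ligand that restrains myeloid cells, had 0.804, 0.245 and 0.165 CPM in microglia, against 82.7, 72.4 and 58.1 CPM in cortex, while its receptor Cd200r1 had 26.1, 28.5 and 27.1 CPM in microglia, against 0.558, 1.17 and 0.616 CPM in cortex. Csf1 (log2 change 0.58, adjusted p = 0.302) and Cd47 (log2 change 0.45, adjusted p = 0.109), a signal against engulfment, were not called, but Cd47 was called higher at 0.63 without cortex library 1 (adjusted p = 0.0369) and in the fit of 18 libraries (adjusted p = 0.0142), and the receptor of CD47, Sirpa, was higher in microglia at log2 change 3.02, adjusted p = 0.0001998. Pros1 and Gas6, bridging ligands for the engulfment receptor Mertk, were higher in microglia at log2 change 5.78, adjusted p = 7.98e-06 and log2 change 1.22, adjusted p = 0.001202 (not called when a change of more than 2-fold was tested, adjusted p = 0.100005), as was Mertk itself at log2 change 3.47, adjusted p = 1.47e-05. Tgfb2 was lower at log2 change -1.61, adjusted p = 0.00417, and the receptor Tgfbr1 was higher at log2 change 5.81, adjusted p = 8.17e-06.

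Genes of energy and lipid metabolism were lower in microglia. Of 28 genes of oxidative phosphorylation 26 were lower and none higher, with a median of -1.73, and of 20 genes of cholesterol synthesis 17 were lower and none higher, with a median of -2.06. The oxidative phosphorylation genes summed to 12112 CPM in cortex library 3, against 4479 and 5297 CPM in the others. Without that library 26 were still lower, with a median of -1.29, and the cholesterol median was -2.19. Cox5a, a subunit of cytochrome c oxidase, had 29.2, 30.9 and 26.9 CPM in microglia, against 89.9, 123 and 153 CPM in cortex (log2 change -1.91 ± 0.21 SE, adjusted p = 0.000143). Hmgcs1, an early enzyme of the cholesterol path, had 31.1, 32.7 and 36.3 CPM in microglia, against 203, 185 and 175 CPM in cortex (log2 change -2.36 ± 0.21 SE, adjusted p = 6.03e-05). Groups did not overlap for either gene, as for 11119 of all 14318 genes tested. Of 18 glycolysis genes, 13 were lower, 3 higher and 2 not called, beside 38.7% lower and 32.1% higher over all genes tested. The hexokinases were divided: Hk2 and Hk3 were higher at 6.73 and 6.58, Hk3 having 177, 183 and 180.5 CPM in microglia, against 2.23, 1.81 and 2.16 CPM in cortex, and Hk1 was lower at -2.30. Of 35 tested ribosomal protein genes, 2 were higher and 3 lower with a median of -1.02, but without cortex library 3 they came to 16 higher and 5 lower with a median of 0.57. Ribosomal genes and Gapdh, which was listed at 2.56 ± 0.319 CPM in microglia and 1.12 ± 0.489 CPM in cortex (SD, n = 3 each), have many processed pseudogenes, and how the counting treated reads shared with them is not given, so their levels are uncertain.

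The homeostatic genes give the level of microglial transcripts that whole cortex retains. The cortex level was a median of 1.28% of the microglia level over the 30 genes, and 25 of them were under 3%. By cortex library the median was 0.908, 1.26 and 1.75%. P2ry13 was lowest at 0.592% and Bin1, an endocytic protein that neurons and oligodendrocytes also make, highest at 24.1%. In control cortex after PLX5622 the same median was 0.0246%. Csf1r was at 0, 0 and 0 CPM in the PLX5622 cortex libraries, while Bin1 kept 22.5%, Mertk 8.41% and Cst3 5.18% of the microglia level. In bulk tissue, fewer microglia and less RNA per microglial cell cannot be told apart, and these percentages are not shares of cells.

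**Figure D4:**
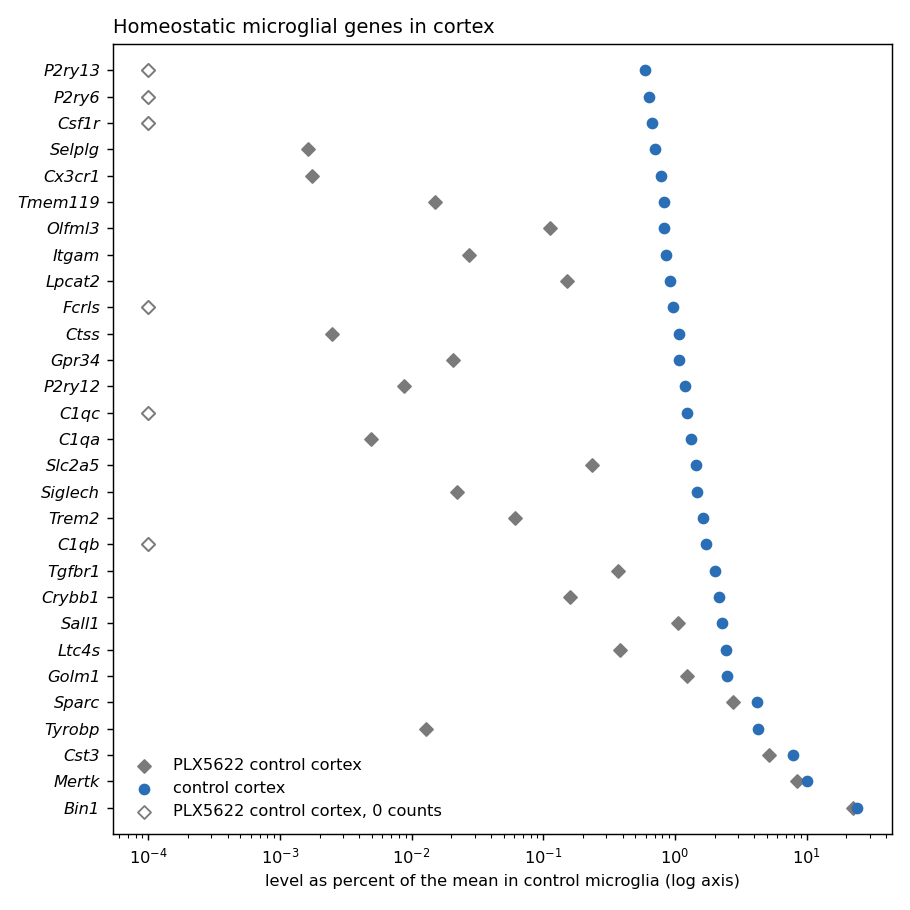
Level of 29 of the 30 homeostatic microglial genes in PLX5622 control cortex (grey diamonds; open where no count was found, drawn at the left edge) and in control cortex (blue), as percent of the mean in control microglia on a log axis; n = 3 libraries per group. Blue points lie between 0.592 and 24.1%, and most grey points lie far to their left, with Bin1, Mertk and Cst3 close to their blue points.

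Libraries that had no part in defining the sets gave a second measure of them, although the fit of cortex shares its estimate of spread with the control groups. After PLX5622, 8 genes were called lower in MSA cortex (0.0548% of 14600), 60 in control corpus callosum (0.378% of 15881) and 49 in control striatum (0.329% of 14872). Control corpus callosum had placebo libraries 1, 2 and 3 but only PLX5622 libraries 1 and 2. Control striatum had only libraries 1 and 2 of each diet. All 8, all 60 and all 49 were microglia-enriched genes, a set that made up 5.86, 6.04 and 5.90% of the genes tested there. Only libraries of the groups compared were left out in turn, not those of the other genotype in the fit. Leaving out any 1 MSA cortex library but placebo 1 left 0 calls in MSA cortex. Corpus callosum had 31 to 35 without a placebo library and striatum had 29 without PLX5622 library 2, and a replicate block gave 1, 16 and 55 calls. The median log2 change of enriched genes was -0.49, -0.37 and -0.34 in MSA cortex, corpus callosum and striatum, beside -0.03, 0.02 and 0.00 over all genes tested. Most enriched genes were not called: 0.935, 6.25 and 5.59% of those tested were lower. Those whose cortex level was under 1% of the microglia level had medians of -1.57, -3.45 and -4.12, over 55, 80 and 65 genes tested. Of the genes absent from microglia, 501, 509 and 438 were tested there and none were called lower, at medians of -0.11, 0.10 and 0.06. With 0.0548, 0.378 and 0.329% lower over all genes tested, 0 calls is near that share and sets these genes apart from no others. Among single genes, Csf1r changed by -6.16 ± 0.54 (SE, adjusted p = 0.000545) in corpus callosum and C1qa by -5.62 ± 0.76 (adjusted p = 0.0099).

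The contrast was repeated in the 6 libraries of the other genotype. Between MSA microglia and MSA cortex, 5350 genes (37.7%) were higher in microglia and 5874 (41.4%) lower of 14203 tested. Genes higher in both genotypes numbered 4363, which is 94.8% of those called in control and 81.6% of those called in MSA. Genes lower in both numbered 5085, or 91.8% and 86.6%. Genes called in opposite directions numbered 5: Lgi4, Scoc, Axl, Plin3 and Fxyd3, named after their values were seen. Fxyd3 overlaps the end of Lgi4 on the opposite strand, so reads of the pair cannot be told apart, and the control call of Plin3 was lost under 7 of the alternatives. A test of the difference itself called 7 of 14946 genes (0.0468%), or 3 to 13 with 1 library left out, and Axl was among them, at a difference of 2.59 (MSA minus control, adjusted p = 0.0143): it had 102, 136 and 162 CPM in MSA microglia, against 22.9, 20.2 and 20.6 CPM in control microglia, with 73.3, 87.2 and 73.96 CPM in MSA cortex, against 81.3, 96.99 and 56.5 CPM in control cortex. All 12 choroid plexus genes were higher in MSA microglia than in MSA cortex, whereas 1 of 12 was called in control, or 0 with RLE size factors and 6 in the fit of 18 libraries, and the difference between the genotypes was called for none of them. Ttr had 759, 1436 and 1065 CPM in MSA microglia, against 43.9, 31.3 and 224 CPM in MSA cortex.

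**Figure D5:**
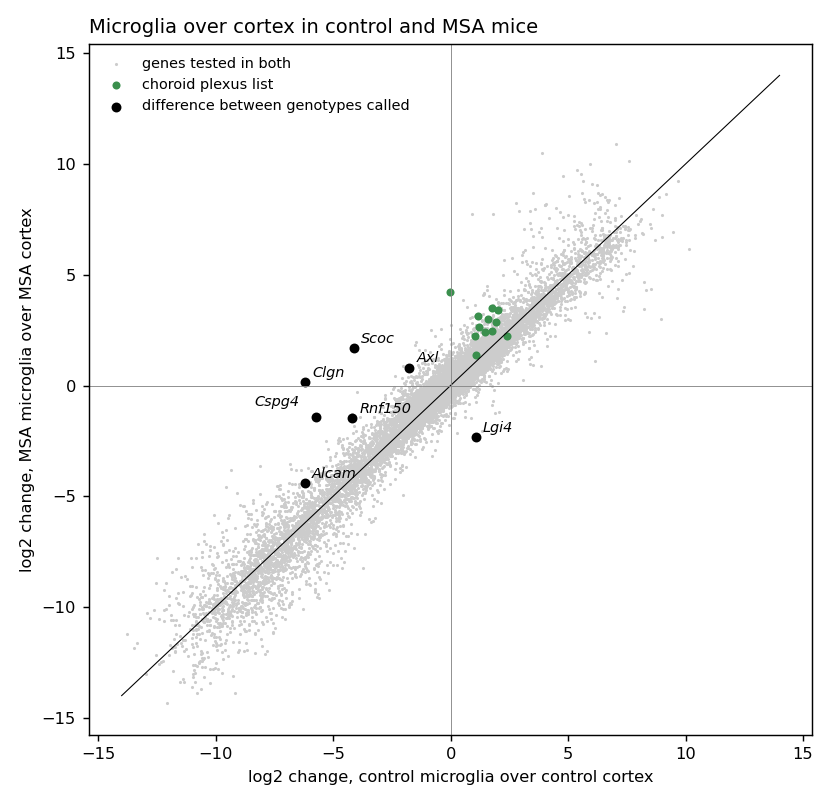
Log2 change of each gene in MSA microglia over MSA cortex (vertical) against that in control microglia over control cortex (horizontal), with the line of equal change; points are genes. Most genes lie along the line, the 7 genes with a called difference lie off it, and choroid plexus genes (green) lie above 0 on the vertical axis.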

How the data were processed

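Poly(A) RNA was measured in 36 mouse libraries, and 6 of them carry the main comparison. The authors deposited whole-number read counts for 24940 genes with library totals, and a second table of the same genes in TPM, per the file headers. STAR, HOMER, DESeq2 and the build mm10 are named in the submitters' processing notes, with no version, and strand use in counting is not given in those notes. The deposited TPM of the listed genes did not add up to the full scale of that unit, so they were used to rank genes within a library kind and to give the levels of a pair of abundant genes in each kind, with no test. Counts assigned to genes gave 60.1 to 82.6% of the header totals in the 6 libraries, and every column was mapped to a sample.

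Counts were tested with edgeR 4.0.16 (R 4.3.3, limma 3.58.1): filterByExpr with a minimum count of 10, TMM scaling, robust quasi-likelihood F tests and Benjamini-Hochberg adjustment over all genes tested, called at 0.05. The 6 libraries were fitted alone. MSA libraries were fitted the same way, the difference between genotypes in 12 libraries, and PLX5622 in all groups of a region. Alternatives were DESeq2 1.42.0, other scalings, no filter, a replicate block, each library of the groups compared left out, a fit of 18 libraries and a test of changes over 2-fold. On simulated counts of the main comparison with 200 changed genes among 14318, 11% of those changed by a log2 of 1 and 85% of those changed by 2 were called. Of the calls 10.3% were false, more than the nominal share of 0.05. All other genes had equal means and both groups the same spread at a given level, unlike these data. These shares therefore do not carry over to the calls of the main comparison. Replicate numbers did not pair libraries: same-numbered deviations correlated by 0.01, -0.03 and 0.03. No 2 libraries of a group agreed within sampling noise.

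The rule for named genes took 17 fixed markers and sort antigens, the 8 genes of largest fold in each direction at a mean log2 CPM of at least 4, the 10 of highest microglial TPM, the 10 absent genes of highest cortex CPM, the 6 of smallest change, and up to 4 members per list with up to 2 in the other direction. Other named genes illustrate their list, and some genes under the rule are not reported here. The gene sets, the 30 lists and the comparisons were chosen with earlier results of these data known. Promoters were matched by symbol to RefSeq (GRCm38.p6) for 11097 tested genes.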

Additional observations from a re-analysis of the deposited data

Results flagged for a closer look

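For 7 genes the change between microglia and cortex differed between the genotypes in a test of that difference (edgeR, adjusted p under 0.05). DESeq2 called 24. At an unadjusted p under 0.05 there were 762 of 14946 genes, near the share of 0.05 reached where no gene differs, so that count shows no wider set of differences. Scoc, which encodes a coiled-coil protein, had a difference (MSA minus control) of 5.83 on the log2 scale: it had 68.7, 69.4 and 76.5 CPM in MSA microglia, against 0.804, 1.83 and 1.32 CPM in control microglia. Clgn, which encodes the chaperone calmegin and is the neighbour of Scoc on chromosome 8, had a difference of 6.35, with 10.1, 10.9 and 8.402 CPM in MSA microglia, against 0.134, 0 and 0.165 CPM in control microglia. Lgi4, a secreted protein of Schwann cells and other glia, had a difference of -3.38, with 12.3, 16.2 and 9.58 CPM in MSA microglia, against 121, 113 and 117 CPM in control microglia. Axl differed by 2.59, Cspg4 by 4.32, Rnf150 by 2.71 and Alcam by 1.83. Rnf150, at chr8:82863356-83091271, lies in the same part of chromosome 8 as Clgn (chr8:83389842-83428552) and Scoc (chr8:83434492-83442662), and its difference has the same sign as theirs. Whether the differences of Rnf150, Clgn and Scoc are independent of one another was not tested. The differences of Scoc, Clgn and Lgi4 kept their call under all 16 alternatives, and those of Axl, Cspg4, Rnf150 and Alcam under 12, 13, 9 and 6 of them.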

How the results depend on the processing

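No call of the main comparison changed direction under any of the 14 alternatives. Genes higher and lower in microglia numbered 4353 and 5734 with RLE factors, 4227 and 5803 with no scaling, 4505 and 5579 with upper quartile scaling, 4807 and 6622 with DESeq2, and 2784 higher when a change of more than 2-fold was tested. With no scaling the median of all genes was -0.31, against -0.15. Replicate numbers do not pair these libraries, and a replicate block gave 4419 higher and 5274 lower in control, 5278 and 5729 in MSA, 5 genes for the difference between genotypes, and 1, 16 and 55 genes lower after PLX5622 in MSA cortex, corpus callosum and striatum, against 8, 60 and 49 without it. DESeq2 gave 24 genes for the difference and 32, 125 and 93 after PLX5622, and no filter gave 83 in striatum; the cause was not tested. Leaving out each library gave 4119 to 5523 higher and 4929 to 6186 lower in control, 5005 to 5294 and 5856 to 6206 in MSA, 1027 to 1120 enriched genes (1024 in all), 509 to 768 absent genes, 1.07 to 1.46% for the homeostatic median, 3 to 13 genes for the difference, and 0 to 6, 31 to 67 and 29 to 45 genes lower after PLX5622. The difference gave 12 and 13 genes without control cortex 1 and 3, and 3 without MSA cortex 2 or 3 or control microglia 2. Corpus callosum gave 32, 31 and 35 without placebo 1, 2 and 3, striatum 29 without PLX5622 library 2, and MSA cortex 0 without any 1 MSA library but placebo 1. Libraries of the other genotype in the PLX5622 fits were not left out. Absent genes numbered 229 at 5 CPM or more in cortex and 893 when 1 count was allowed. Of 196 genes examined singly, 177 kept their call under every alternative. At these depths a gene below 0.108 CPM in microglia cannot be told from an absent one.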
